A study of Mus musculus with 12 samples.

Results

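This account covers 6 homeobox genes that pattern the border between midbrain and hindbrain, namely En1, En2, Otx2, Otx1, Gbx2 and Lmx1b. A probe set, the group of short oligonucleotides that reads a transcript on an Affymetrix array, was taken when the platform annotation gave it exactly 1 of these symbols. That gave 7 probe sets of 45101 on the array and 6 genes of the 18193 that could be tested. Lmx1b had 2 probe sets and each other gene 1. Where a gene had several, the brightest over all arrays stood for it.

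The cells were granule cell progenitors, the dividing precursors in the outer layer of the cerebellum, isolated on a Percoll gradient from mice at postnatal day 8. Wild type mice and mice carrying Atoh1-CreER/+ with R26LSL-SmoM2-YFP were compared, and the cerebellar hemispheres (the lateral cerebellum) and the vermis (its midline) were kept apart. SmoM2 is a constantly active form of Smoothened, which passes the hedgehog signal into the cell, and the Cre recombinase that releases it is active only in cells expressing Atoh1 and only after tamoxifen, here 200 µg per g at postnatal day 2. The 4 groups had 3 arrays each, every array held RNA pooled from 5 mice, and all mice were of a mixed background with C57BL/6 and Swiss Webster. The sources used here do not say whether wild type mice had tamoxifen. The series asks whether progenitors of the lateral cerebellum react differently to a strong hedgehog signal.

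During embryonic development the isthmus, a signalling centre at the border of midbrain and hindbrain, forms where Otx2 on the midbrain side meets Gbx2 on the hindbrain side. Its main signal is Fgf8, and Lmx1b, Wnt1, Pax genes and the Engrailed genes En1 and En2 hold that signal in place in a mutual loop. The Engrailed proteins keep acting after birth in the folding and regional layout of the cerebellum, and Otx2 stays on in granule cell progenitors of posterior lobules. All 6 genes encode transcription factors with a DNA-binding homeodomain.

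En1 and Otx2 are the members called between regions in both genotypes, so the RefSeq windows (build GRCm38.p6) around their annotated start sites are shown, from 250 bases before to 50 bases after the start, read 5′ to 3′ on the gene's own strand. Capitals mark matches, on either strand, to TAATTA (a core bound by Engrailed-type homeodomains), TAATCC (the core bound by Otx proteins), TGGGTGGTC (the Gli site of hedgehog signalling) or CACGTG (an E-box). En1 has 1 window, chr1:120602237-120602536 on the plus strand. Otx2 has 4 windows on the minus strand, of which those with a match are shown, at chr14:48667595-48667894 and chr14:48665060-48665359.
En1: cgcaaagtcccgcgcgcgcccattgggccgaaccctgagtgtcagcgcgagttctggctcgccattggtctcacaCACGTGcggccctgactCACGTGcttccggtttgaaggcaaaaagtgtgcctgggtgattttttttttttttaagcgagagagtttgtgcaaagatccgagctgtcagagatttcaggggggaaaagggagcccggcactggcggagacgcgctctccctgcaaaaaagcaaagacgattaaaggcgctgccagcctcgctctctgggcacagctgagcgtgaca
Otx2, upstream start: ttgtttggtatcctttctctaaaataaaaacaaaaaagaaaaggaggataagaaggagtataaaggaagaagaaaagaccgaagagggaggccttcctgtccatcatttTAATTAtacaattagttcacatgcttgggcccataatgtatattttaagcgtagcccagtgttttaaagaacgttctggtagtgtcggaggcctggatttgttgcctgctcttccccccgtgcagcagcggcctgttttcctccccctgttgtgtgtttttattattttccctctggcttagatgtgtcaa
Otx2, inner start: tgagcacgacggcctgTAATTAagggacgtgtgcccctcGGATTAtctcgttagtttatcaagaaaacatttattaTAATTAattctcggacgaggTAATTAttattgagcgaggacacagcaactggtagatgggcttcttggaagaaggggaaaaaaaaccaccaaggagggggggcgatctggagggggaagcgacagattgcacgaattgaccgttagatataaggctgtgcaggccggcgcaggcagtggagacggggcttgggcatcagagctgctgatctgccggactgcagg
The En1 window held 2 E-boxes and no other match. The upstream Otx2 window held 1 TAATTA, and the inner window held 3 of them with 1 TAATCC, which reads GGATTA on this strand. Of all 32851 windows in the table, 5.29% held TAATTA, 7.06% TAATCC, 7.15% CACGTG and 0.253% the Gli site, which matched no window of the 4 members in the table. These matches are letters in a window and were not tested for binding.

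The median log2 level of an array was 4.81 to 4.87, its lower quartile 3.24 to 3.42 and its upper quartile 6.90 to 7.09. The values of a group differed little between its arrays (median SD 0.132). The progenitor factor Atoh1 read 7.75 to 9.10 over the 12 arrays. Gli1, a direct readout of hedgehog signalling, read 6.83 to 7.41 on the 6 wild type and 8.55 to 8.88 on the 6 SmoM2 arrays, so every array stood on the side its label gives. The deposited values carry no call of presence, so the 44 probe sets of olfactory receptor genes, which are mostly silent outside the nose, served as a yardstick for dim signal. Their 95th percentile lay between 3.76 and 4.36 on the 12 arrays and is called the dim limit here. It was 4.13 to 4.36 on the wild type and 3.76 to 3.99 on the SmoM2 arrays. The same reading can therefore lie above it in SmoM2 and below it in wild type. In a bulk RNA sample, fewer cells expressing a gene and less RNA in each cell cannot be told apart.

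En1 was present in the vermis and at dim level in the hemisphere, in both genotypes. Wild type hemisphere arrays read 2.54, 2.55 and 2.50 and wild type vermis arrays 5.42, 5.65 and 5.76 (log2 level). SmoM2 hemisphere arrays read 2.27, 2.38 and 2.66 and SmoM2 vermis arrays 5.46, 4.78 and 4.91. All 6 hemisphere arrays lay below the dim limit and all 6 vermis arrays above it, so the regions did not overlap. Hemisphere minus vermis was -3.08 ± 0.16 (log2 difference ± SE, n = 3 arrays per group) in wild type by limma (adjusted p = 3.35e-07) and -2.61 ± 0.16 in SmoM2 (adjusted p = 3.07e-06). En1 had the smallest p and the largest difference of the 18193 genes in each of these comparisons. The differences share no array, but both p-values rest on a spread estimated from all 12 arrays. The sizes are 8.47-fold and 6.13-fold, but the hemisphere values are too dim to give a ratio. Against the dim limit of the hemisphere arrays, the vermis was at least 2.54-fold higher in wild type and at least 2.16-fold higher in SmoM2.

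**Figure D1:**
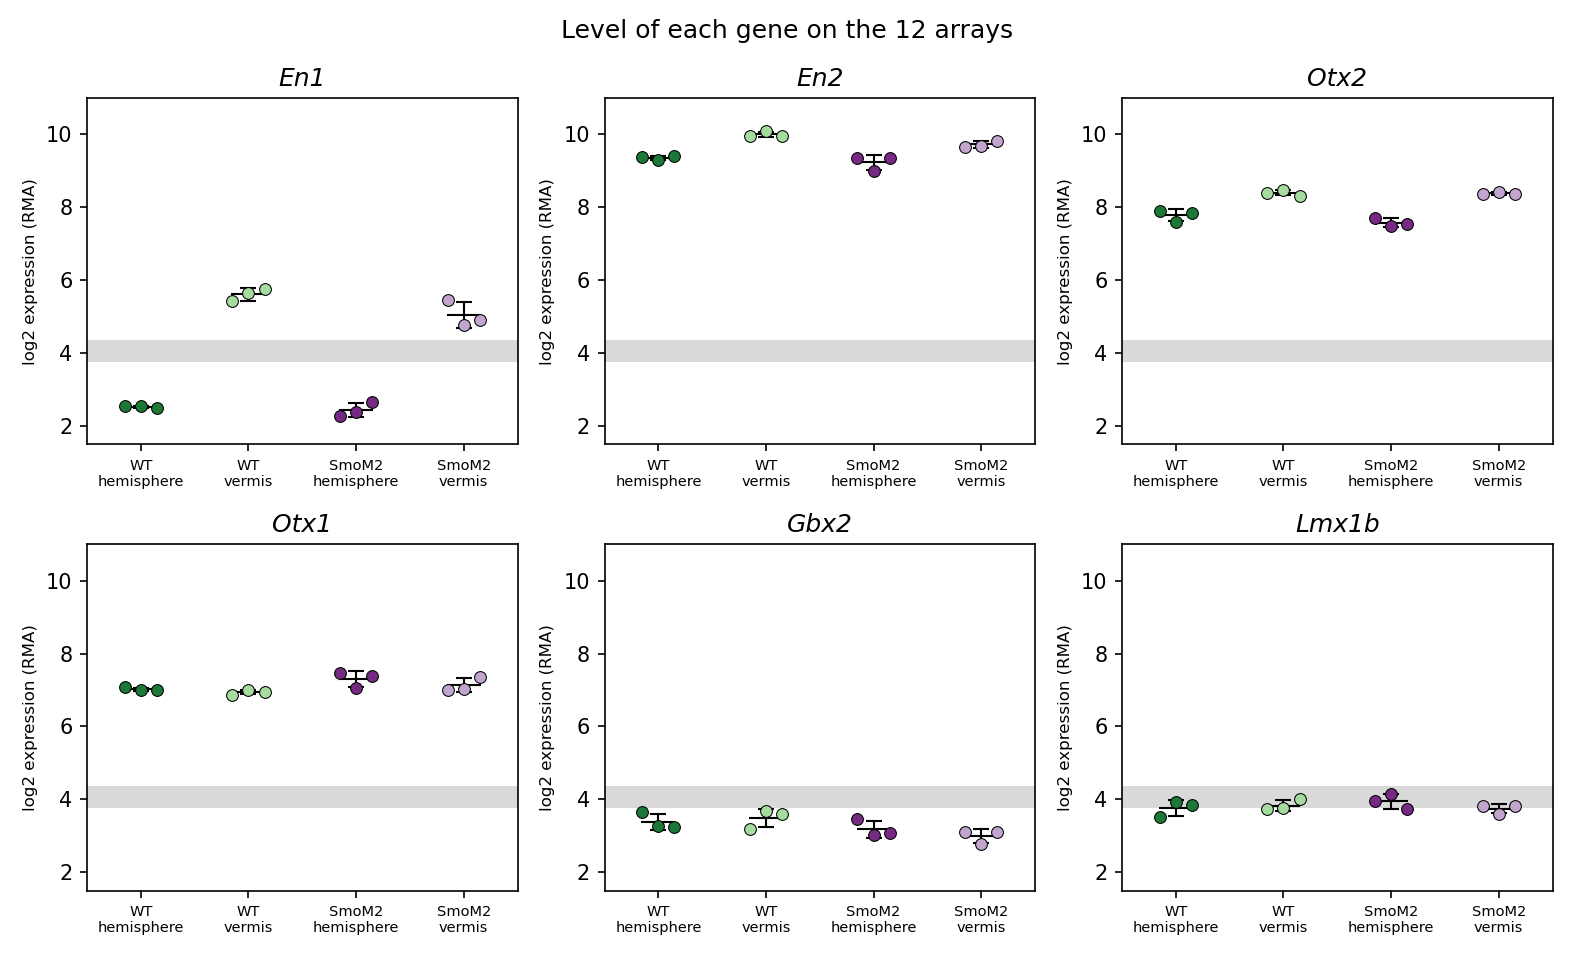
Log2 level of the 6 genes on each of the 12 arrays, by genotype (WT, wild type) and region. Points are arrays, the horizontal mark and bars are the mean and SD of 3 arrays, and the grey band is the range of the dim limit (3.76 to 4.36). En1 lies under the band in both hemisphere groups and above it in both vermis groups, whereas Gbx2 lies under it in all 4 groups.

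En2, the second Engrailed gene, was well above the dim limit in all groups and also higher in the vermis. The wild type arrays read 9.39, 9.29 and 9.40 for the hemisphere and 9.95, 10.09 and 9.96 for the vermis. With SmoM2 the hemisphere arrays read 9.35, 9.01 and 9.34 and the vermis arrays 9.67, 9.68 and 9.83. Each vermis array lay above every hemisphere array of its genotype. The wild type difference was -0.64 ± 0.11 (1.56-fold, adjusted p = 0.039 by limma). The SmoM2 difference was -0.49 ± 0.11 and did not pass (adjusted p = 0.268). A pool here means the same-numbered hemisphere and vermis arrays of a genotype, which the labels do not say share mice. With the pool as a random block the SmoM2 difference passed (0.0447), and with the pool as a fixed block it did not (0.168). When 1 array was left out the wild type call held in 3 of 12 fits (without wild type hemisphere replicate 1, SmoM2 hemisphere replicate 2 or SmoM2 vermis replicate 3) and not in the other 9 (adjusted p from 0.0524 to 0.209), with differences from -0.67 to -0.59. It also ended with only the groups compared (0.243), with every probe set as a row (0.0755) and with array quality weights (0.0711).

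Otx2 followed the same regional order. Wild type hemisphere arrays read 7.91, 7.60 and 7.86, and wild type vermis arrays 8.40, 8.47 and 8.32. SmoM2 hemisphere arrays read 7.71, 7.47 and 7.55, and SmoM2 vermis arrays 8.36, 8.43 and 8.36. No hemisphere array reached a vermis array. Hemisphere minus vermis was -0.61 ± 0.11 in wild type (1.53-fold, adjusted p = 0.039) and -0.81 ± 0.11 in SmoM2 (1.75-fold, adjusted p = 0.0108, limma). In wild type the call held in 1 of 12 fits that left out an array, the one without wild type hemisphere replicate 1 (0.0313), and not in the other 11 (0.0524 to 0.216). It also ended after median centring (0.0571), with the pool as a fixed block (0.0579, but 0.00656 as a random block), with every probe set as a row (0.0755), with array quality weights (0.0597) and with only the groups compared (0.268). In SmoM2 it ended without SmoM2 hemisphere replicates 2 (0.0674) or 3 (0.056) and without SmoM2 vermis replicates 1 (0.0572), 2 (0.077) or 3 (0.0658). The difference kept its sign in each of these fits, between -0.67 and -0.52 in wild type and between -0.87 and -0.76 in SmoM2 when 1 array was left out.

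The vermis was thus higher for 3 of the 6 genes in wild type, where 0.187% of all genes were called (0.148% lower and 0.0385% higher in the hemisphere). It was higher for 2 of 6 in SmoM2, where 0.0605% of all genes were called (0.044% lower and 0.0165% higher). Regional groups did not overlap for 4 of the 6 genes in wild type, against 8.77% of all genes, and for 3 of 6 in SmoM2, against 10.7%. The fourth gene in wild type was Otx1, whose groups were separated by less than the second decimal. Of 34 genes called between regions in wild type and 11 in SmoM2, 4 were called in both with the same sign. En1 and Otx2 were the 2 of these that were higher in the vermis. The 2 that were higher in the hemisphere, named after their values were seen, were Nr2f2, an orphan nuclear receptor (1.87 in wild type and 1.60 in SmoM2), and Epha3, an Eph receptor (1.66 and 1.17). As means of all their probe sets, Epha3 differed by 0.93 in wild type and Nr2f2 by 1.24. The Epha3 call in SmoM2 ended without SmoM2 hemisphere replicates 1 (0.104) or 2 (0.0698) and without SmoM2 vermis replicates 1 (0.0705) or 3 (0.0658).

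**Figure D2:**
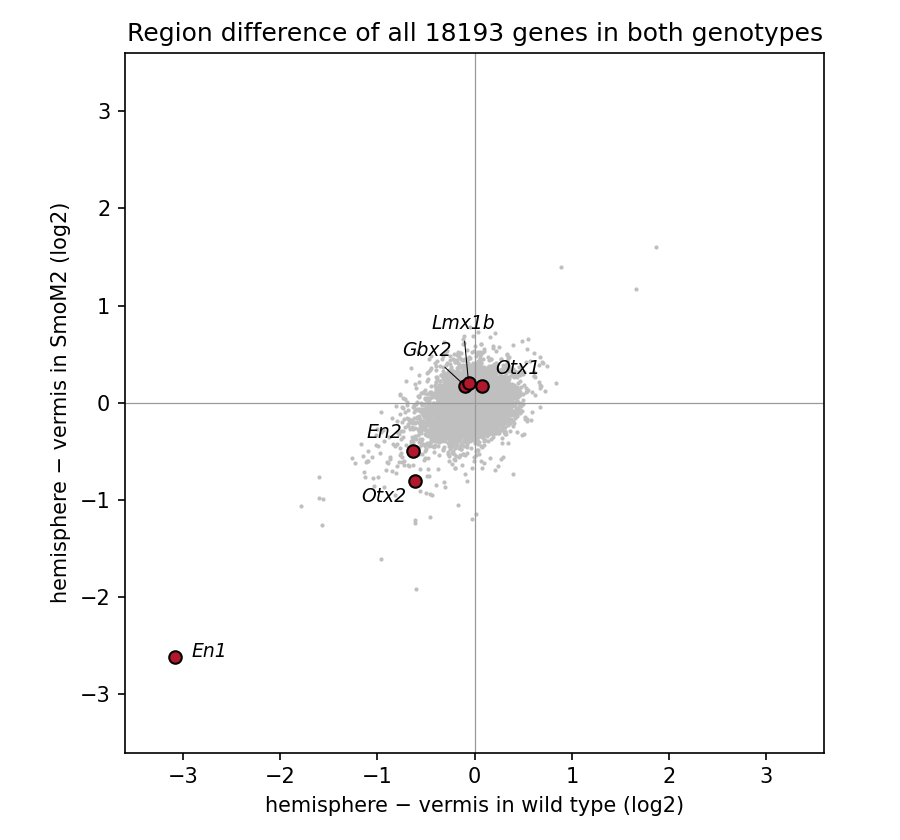
Hemisphere minus vermis (log2 difference) for all 18193 genes, in wild type on the horizontal axis and in SmoM2 on the vertical axis. Red points are the 6 genes: En1 stands alone at -3.08 and -2.61, En2 and Otx2 lie in the same quadrant, and Otx1, Gbx2 and Lmx1b lie within the cloud.

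The difference between regions was also taken within each pair of same-numbered arrays. En1, En2 and Otx2 were lower in the hemisphere in 6 of 6 pairs. The En1 pairs differed by -2.88, -3.11 and -3.26 in wild type and by -3.19, -2.41 and -2.25 in SmoM2. The En2 pairs differed by -0.56, -0.80 and -0.56 in wild type and by -0.32, -0.68 and -0.49 in SmoM2. The Otx2 pairs differed by -0.49, -0.87 and -0.47 in wild type and by -0.64, -0.96 and -0.82 in SmoM2. Each pair of each of the 3 genes thus had the same sign, and the smallest step was that of En2 in SmoM2 pair 1. Any pairing would give this sign, since the regions of these genes did not overlap within a genotype. Otx1, which was not called, was lower in the hemisphere in 0 of 3 pairs of each genotype. A count of signs therefore does not set called genes apart.

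Otx1, the paralog of Otx2, was not called between regions. The wild type arrays read 7.07, 6.99 and 6.99 for the hemisphere and 6.88, 6.99 and 6.95 for the vermis. The SmoM2 arrays read 7.46, 7.06 and 7.39 for the hemisphere and 7.01, 7.04 and 7.36 for the vermis. All arrays were above the dim limit. Hemisphere minus vermis was 0.08 in wild type (95% interval -0.19 to 0.34, adjusted p = 0.995) and 0.17 in SmoM2 (-0.10 to 0.43, adjusted p = 1, limma). These intervals exclude a vermis excess of the size seen for Otx2.

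Gbx2, which opposes Otx2 in the embryo, lay below the dim limit on all 12 arrays, at 2.78 to 3.67. Its regional differences were -0.10 (95% interval -0.45 to 0.25) in wild type and 0.18 (-0.17 to 0.53) in SmoM2, and neither passed. The kept Lmx1b probe set read 3.52 to 4.14 and was above the dim limit on 3 of 12 arrays. These were 2 of SmoM2 hemisphere and 1 of SmoM2 vermis, where that limit was lower than in wild type. The second Lmx1b probe set read 3.20 to 3.80 and was above the dim limit on 0 of 12. Regional differences of Lmx1b were -0.06 (-0.36 to 0.23) and 0.20 (-0.09 to 0.50) with the kept probe set, and 0.17 and 0.03 with the other, and none passed. With every probe set as a row, 0.0533% were called between wild type regions, 0.0333% between SmoM2 regions, 10.7% for SmoM2 in the hemisphere and 11.2% in the vermis. For Gbx2 and Lmx1b a difference could not be measured well at this signal, so these intervals describe dim values only.

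Of the 6 genes, 1 passed the test for an effect of SmoM2. In the hemisphere 0 of 6 passed by limma, where 14.8% of all genes were called, and 1 of the 6, Otx1, had an unadjusted p under 0.05 (0.0362), as did 30.9% of all genes. In the vermis 3 of the 6 (En1, En2 and Gbx2, each lower in SmoM2) had an unadjusted p under 0.05, as did 33% of all genes. After adjustment 1 of 6 passed there, where 17% of all genes were called. The gene was En1, lower by 0.56 ± 0.16 in SmoM2 vermis (1.47-fold, adjusted p = 0.0296), in groups that overlapped because SmoM2 vermis replicate 1, at 5.46, lay above the lowest wild type array at 5.42. The En1 call ended without wild type vermis replicates 2 (0.0859) or 3 (0.107) and without SmoM2 vermis replicates 2 (0.134) or 3 (0.0944). In the hemisphere, where En1 is dim, it differed by -0.09 (95% interval -0.43 to 0.25, adjusted p = 0.732). The genotypes were separated without overlap for 0 of the 6 genes in the hemisphere, against 31.7% of all genes, and for 3 of 6 (En2, Otx1 and Gbx2) in the vermis, against 39.8%.

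En2 differed by -0.13 (95% interval -0.36 to 0.11) in the hemisphere (adjusted p = 0.448) and by -0.28 (-0.51 to -0.04) in the vermis (adjusted p = 0.099), so neither passed. Otx2 differed by -0.21 (-0.44 to 0.02) in the hemisphere (adjusted p = 0.199, and 0.0454 after renewed quantile normalization) and by -0.01 (-0.24 to 0.22) in the vermis (adjusted p = 0.947). Otx1 differed by 0.29 (0.02 to 0.55) and 0.20 (-0.07 to 0.46), with adjusted p of 0.132 and 0.282. Gbx2 differed by -0.21 (-0.56 to 0.14) in the hemisphere and by -0.49 (-0.84 to -0.14) in the vermis, where its 3 arrays per genotype did not overlap but stayed under the dim limit (adjusted p = 0.0528). The Gbx2 value passed without wild type hemisphere replicate 1 (0.0342), wild type vermis replicate 1 (0.0205) or SmoM2 hemisphere replicate 1 (0.0454). In the other 9 fits that left out an array it did not pass (0.0505 to 0.198). It passed in 4 of 9 other alternatives, and after renewed quantile normalization it was -0.38 (adjusted p = 0.143). The dim limit was itself lower on SmoM2 than on wild type arrays, and its part in the Gbx2 difference was not tested. Lmx1b differed by 0.18 (-0.12 to 0.47) and -0.09 (-0.38 to 0.20) with the kept probe set. Its other probe set, under the dim limit throughout, went the opposite way in the hemisphere. It differed there by -0.32 (-0.60 to -0.04, unadjusted p = 0.0294 by limma), without overlap of the genotypes, and by -0.18 (-0.46 to 0.10) in the vermis. Neither Lmx1b probe set passed in either region (adjusted p = 0.135 and 0.381 for the other probe set). The median of the 6 genes was -0.11 in the hemisphere and -0.18 in the vermis, beside -0.053 and -0.059 over all genes. Tested directly, the SmoM2 effect did not differ between regions for any of the 6 at an adjusted p under 0.05. The closest was En1, whose effect was higher in the hemisphere by 0.47 (-0.02 to 0.96, unadjusted p = 0.0584, adjusted p = 1). Since En1 was below the dim limit on all 6 hemisphere arrays, a fall there could not have been seen, and this value is limited by that floor. In all, 0 of the 18193 genes passed this test by limma (0%), while 564 had an unadjusted p under 0.05.

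**Figure D3:**
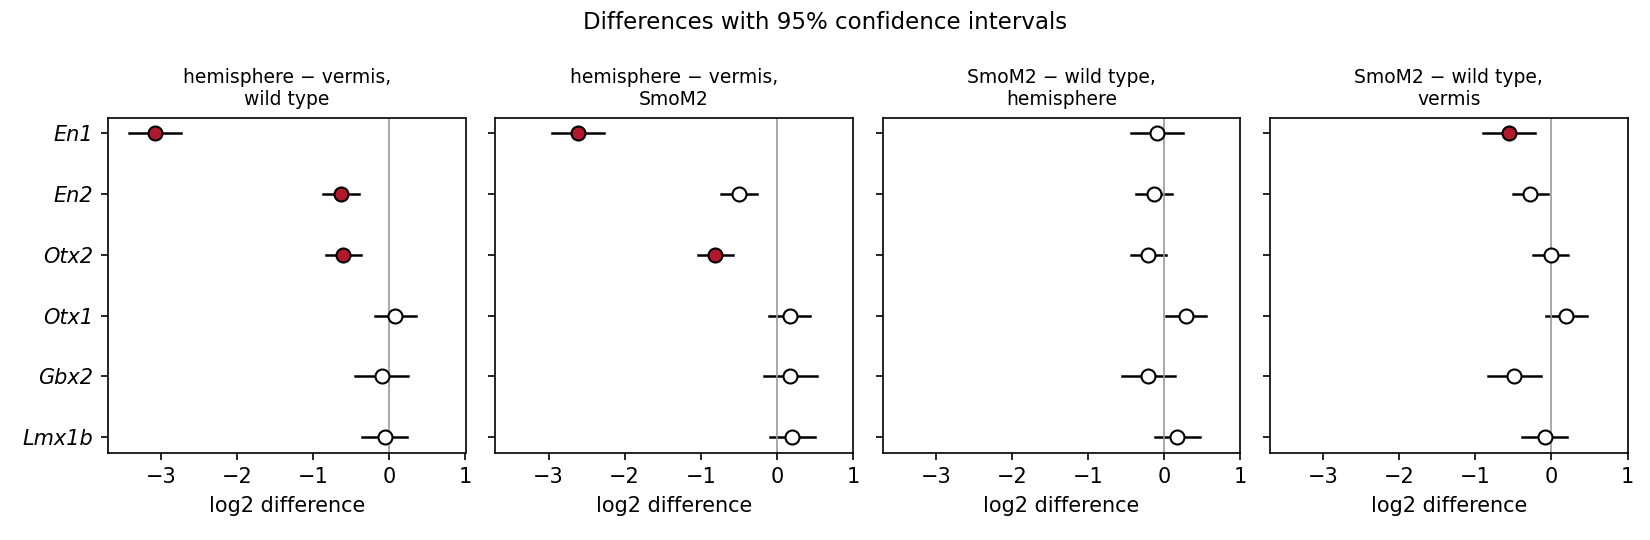
Log2 differences of the 6 genes in 4 comparisons, with 95% confidence intervals from limma (n = 3 arrays per group). Red points had an adjusted p under 0.05 over 18193 genes. Both regional panels show En1 far below 0, while in the SmoM2 panels the points lie between -0.56 and 0.29.

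In order of level, En1 and En2 ran from wild type vermis through SmoM2 vermis and wild type hemisphere to SmoM2 hemisphere. The step between the vermis groups passed for En1 and not for En2, and the step between the hemisphere groups passed for neither. For Otx2 the groups fell into a vermis level (means of 8.40 and 8.38) and a hemisphere level (7.79 and 7.58), and neighbours within a level overlapped. The genes most like En1 over the 12 arrays, among 14918 others above the lower quartile, were Ppil6 (Pearson's r = 0.939), Otx2 (0.930) and En2 (0.919). Those most like En2 were Otx2 (0.920), En1 (0.919) and Plp2 (0.895), and those most like Otx2 were En1, En2 and Ecrg4 (0.911). Hemisphere minus vermis in wild type was -0.91 for Ppil6, -0.84 for Plp2 and -1.57 for Ecrg4 (adjusted p = 0.0293, 0.00196 and 0.0338 by limma). The call of Ppil6 ended without replicates 2 or 3 of the wild type hemisphere, the wild type vermis or the SmoM2 hemisphere (0.0502 to 0.157). That of Ecrg4 held without wild type hemisphere replicate 1, SmoM2 vermis replicate 2 or SmoM2 vermis replicate 3 and ended without any other array (0.0515 to 0.188). With only the groups compared none of the 3 passed (0.114, 0.114 and 0.243). These correlations are descriptions over arrays that share their groups. With the group means removed, r was -0.292 between En1 and Otx2, -0.0023 between En1 and En2 and 0.578 between En2 and Otx2.

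The wider isthmic network was read from a list of 33 further genes, of which 31 were measured. By limma 0 of the 31 passed in either regional comparison, with 5 in wild type (16.1%, against 6.32% of all genes) and 2 in SmoM2 (6.45%, against 3.63%) at an unadjusted p under 0.05, while 10 were higher and 3 lower in SmoM2 in each region. Of all genes, 7.62% were called higher and 7.18% lower in the hemisphere, while 7.56% were called higher and 9.46% lower in the vermis. The other 18 did not pass in the hemisphere, nor did 18 in the vermis, and the list's median difference was -0.032 and -0.13. Fgf8, the isthmic signal itself, lay below the dim limit on all 6 wild type arrays (3.34 to 3.86). It read 4.18, 4.59 and 4.03 in SmoM2 hemisphere and 5.18, 4.98 and 5.07 in SmoM2 vermis. Every SmoM2 array was above every wild type array, and all 3 SmoM2 vermis arrays were above the 3 of SmoM2 hemisphere. The Fgf8 differences fitted by limma were 0.69 ± 0.16 (hemisphere, adjusted p = 0.0103) and 1.42 ± 0.16 (vermis, adjusted p = 3.46e-05), both taken from wild type readings too dim for a size of change. Against the dim limit of the wild type arrays, SmoM2 vermis was at least 1.86-fold higher, and no fold is given for SmoM2 hemisphere, whose mean lay at that limit. SmoM2 hemisphere minus SmoM2 vermis was -0.81 and did not pass (adjusted p = 0.173, but 0.027 when the pool was a random block and 0.0102 under array quality weights). The fitted difference of the SmoM2 effects, -0.73, did not pass (adjusted p = 1) and rests on the same dim wild type readings.

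Wnt1, Fgf17, Pax8 and Sp8, which surround Fgf8 at the isthmus, were below the dim limit on 12 of 12 arrays and did not pass. Among the other genes that rose were Etv5, an ETS factor (2.88 and 2.97 in hemisphere and vermis), the FGF feedback inhibitors Spry4 (1.67 and 1.97), Spry2 (0.94 and 0.95) and Spry1 (0.61 and 0.39), and the ERK phosphatase Dusp6 (1.07 and 0.78). As the mean of all its probe sets Spry4 differed by 0.64 and 0.66. Il17rd, another feedback inhibitor of FGF signalling, differed by -0.19 and -0.14 and did not pass. The vermis call of Spry1 (adjusted p = 0.0387) ended without wild type vermis replicates 2 (0.134) or 3 (0.0846), SmoM2 vermis replicates 1 (0.0723), 2 (0.08) or 3 (0.121), or SmoM2 hemisphere replicate 3 (0.0501). The receptor Fgfr1 rose (0.92 and 0.89, or 0.60 and 0.72 as the mean of its probe sets). The brightest probe set of the receptor Fgfr2 rose (0.58 and 0.49), but the mean of its probe sets did not pass (0.098 and 0.17, adjusted p = 0.595 and 0.324). The receptor Fgfr3 (-0.48 and -0.42) and the ETS factor Etv4 (0.02 and 0.19) did not pass. The remaining genes that rose were Tle4, a corepressor that binds Engrailed proteins (0.68 and 0.51), and Pbx3, a homeodomain cofactor (0.50 and 0.44). In the vermis the Tle4 call ended without wild type vermis replicate 3 (0.0652) or SmoM2 vermis replicate 1 (0.0547). The Pbx3 call in the hemisphere ended without wild type hemisphere replicate 3 (0.0601) or SmoM2 hemisphere replicates 1 (0.0753) or 2 (0.0526). Its vermis call ended without wild type vermis replicates 2 (0.0815) or 3 (0.112) or any SmoM2 vermis array (0.0621 to 0.0807).

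The 3 list genes that fell in both regions were Cnpy1, Sp5 and Meis1. Cnpy1, which promotes FGF receptor signalling at the midbrain-hindbrain border, read 7.20, 7.30 and 7.23 on wild type arrays of the hemisphere and 8.04, 7.68 and 8.19 on those of the vermis. Its SmoM2 arrays read 6.00, 6.54 and 6.45 for the hemisphere and 6.83, 6.99 and 6.96 for the vermis. Cnpy1 fell by 0.91 ± 0.15 in the hemisphere and by 1.04 ± 0.15 in the vermis (adjusted p = 0.000872 and 0.000257). Its vermis arrays lay above its hemisphere arrays in both genotypes, as for the Engrailed genes, but these differences of -0.73 and -0.59 did not pass (adjusted p = 0.0927 and 0.463), and the wild type one passed when the pool was a random block (0.0131). Sp5, a target of Wnt signalling, fell by 0.87 and 1.34. Its call in the hemisphere was lost when replicate 3 of the wild type hemisphere (0.0695) or of the SmoM2 hemisphere (0.0775) was left out. Meis1, a homeodomain cofactor, fell by 0.35 and 0.39, and the mean of its probe sets did not pass (-0.21 and -0.20, adjusted p = 0.147 and 0.162). The hemisphere call of Meis1 held without wild type vermis replicates 1 or 2 and ended without any other array (0.0517 to 0.159). Its vermis call ended without replicates 1 (0.0679) or 3 (0.0837) of the wild type vermis and 2 (0.0851) or 3 (0.0665) of the SmoM2 vermis. Without wild type hemisphere replicate 1 the list had 5 lower genes in each region. Without wild type hemisphere replicate 3 it had 5 in the vermis but 1 in the hemisphere, as it also had there without SmoM2 hemisphere replicate 3.

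**Figure D4:**
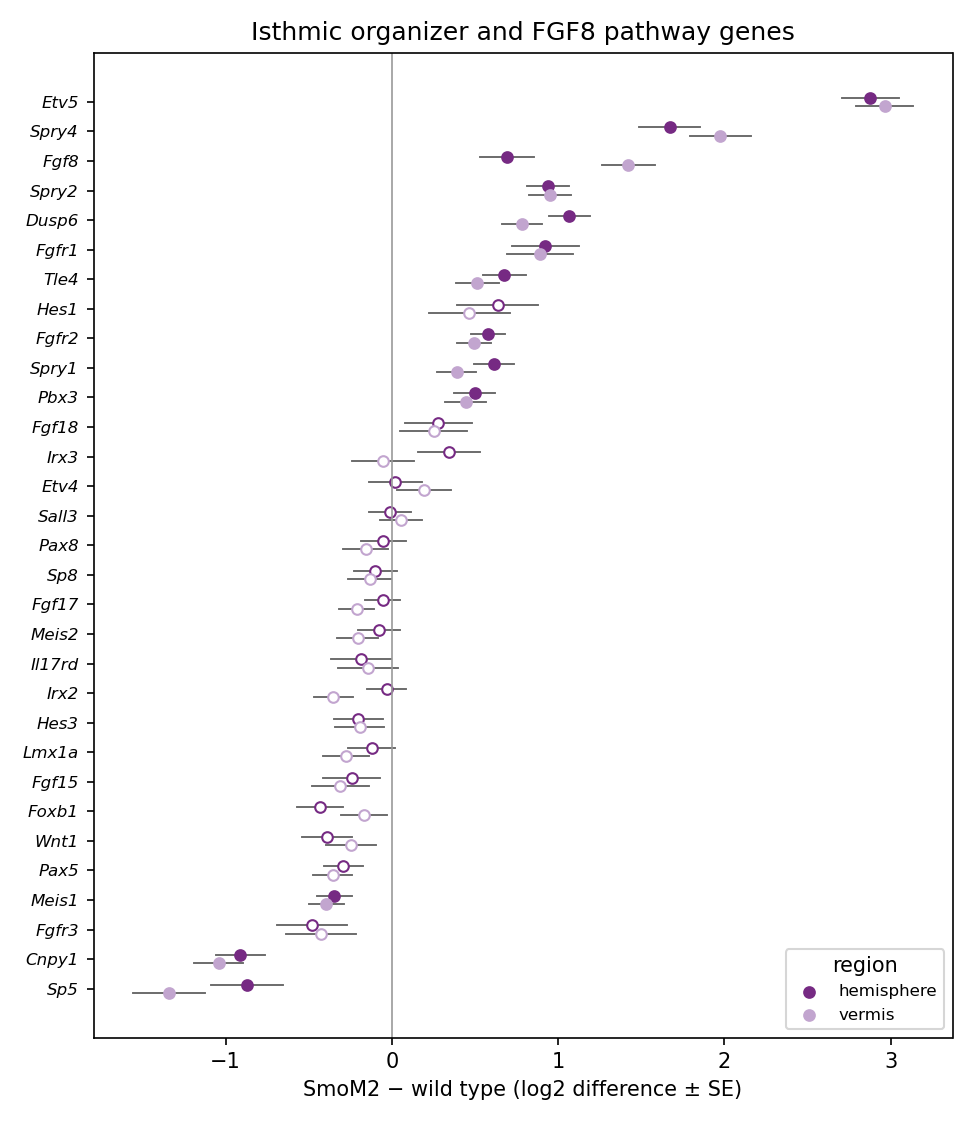
SmoM2 minus wild type (log2 difference ± SE) for 31 genes of the isthmic organizer and FGF8 pathway, in the hemisphere (dark) and the vermis (light). Filled points had an adjusted p under 0.05. The rises are led by Etv5 at 2.88 and 2.97, Fgf8, dim in wild type, is plotted at 0.69 and 1.42, and Cnpy1 and Sp5 have the largest falls.

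Markers of other cells in the Percoll fraction were set beside the regional result, as sums of linear signal over each list. By limma 0 of 88 genes on 10 such lists passed in either regional comparison, where 0.187% (wild type) and 0.0605% (SmoM2) of all genes passed. At an unadjusted p under 0.05 there were 15 in wild type (17%, against 6.32% of all genes) and 8 in SmoM2 (9.09%, against 3.63%). Their sums did not overlap between regions for 3 of 10 lists in wild type and for 1 of 10 in SmoM2, each lower in the hemisphere. Of all genes, taken singly, 8.77% in wild type and 10.7% in SmoM2 did not overlap, and 1 of 10 is near that share. Sums for 9 oligodendrocyte genes ran from 9752 to 11040 in wild type hemisphere and from 12030 to 16820 in wild type vermis, without overlap, and from 3723 to 5461 and 4017 to 5975 in SmoM2, with overlap. Sums for 9 Purkinje cell genes ran from 1174 to 1343 and 1461 to 1670 in wild type, and from 934.8 to 1062 and 1034 to 1136 in SmoM2. Sums for 7 genes of unipolar brush cells ran from 1032 to 1237 and 1241 to 1321 in wild type, and overlapped in SmoM2 (970.4 to 1072 and 984 to 1060). These were the 3 lists separated in wild type, and their part in the regional differences of the 6 genes was not tested. Of 15 markers of midbrain dopamine and hindbrain serotonin neurons, where En1 and Lmx1b are also used, 8 to 10 were below the dim limit in each group, among them Th and Tph2 on 12 of 12 arrays. Their sums overlapped in wild type (673.6 to 828.3 in the hemisphere and 723.9 to 968.5 in the vermis) but not in SmoM2, where they ran from 805.2 to 948.6 and from 1033 to 1115. Only the sum of this list was thus separated between SmoM2 regions. Of its 15 genes 0 passed there, and their median difference, hemisphere minus vermis, was 0.0071. The part of these neurons in the En1 difference was not tested.

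The choroid plexus, an epithelium that expresses Otx2, was read by 10 markers, of which 7 were below the dim limit in each group, with Folr1 and Kl below it on 12 of 12 arrays. Ttr, its most abundant transcript, read 11.85, 4.90 and 5.17 on the wild type arrays of the hemisphere and 8.31, 7.75 and 7.68 on those of the vermis. The SmoM2 arrays read 5.97, 5.79 and 6.60 for the hemisphere and 8.21, 8.76 and 7.15 for the vermis. Ttr was higher on all vermis arrays than in SmoM2 hemisphere and in the wild type hemisphere arrays other than replicate 1. Wild type hemisphere replicate 1 had the highest Ttr of all arrays. It also had the highest Otx2 of the hemisphere arrays, 7.91, which was below every vermis array. Whether choroid plexus cells had a part in the Otx2 difference was not tested. For Actb, the 3′ minus the 5′ probe set, which grows as RNA degrades, was 0.64 ± 0.17 (SD, n = 3) for wild type hemisphere arrays and 0.89 ± 0.012 for those of the vermis. In SmoM2 it was 0.98 ± 0.11 for the hemisphere and 0.96 ± 0.098 for the vermis. The part of RNA quality in the regional differences was not tested.

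Between genotypes, 34 of the 88 genes on these 10 lists passed in the hemisphere and 39 in the vermis. Of all genes, 7.62% were called higher and 7.18% lower in the hemisphere. In the vermis 7.56% were called higher and 9.46% lower, and the small counts of some lists below are near these shares. In SmoM2, 7 of 9 oligodendrocyte genes and 6 of 8 microglial genes fell in each region. Of 9 Purkinje cell genes the hemisphere had 1 rise with 2 falls and the vermis 1 rise with 4 falls. For 6 interneuron genes these were 1 rise with 3 falls, then 1 rise with 4 falls. The 7 genes of unipolar brush cells had 1 fall in the hemisphere against 3 in the vermis, and 7 endothelial and pericyte genes had 0 against 3. Among 9 astroglial genes 2 rose while 2 fell in each region. The 8 meningeal genes had 3 rises with 2 falls in the hemisphere, then 1 rise with 2 falls in the vermis. The choroid plexus list had 1 rise with 1 fall in the hemisphere, then 1 rise in the vermis, and the list of dopamine and serotonin neurons had 1 rise with 1 fall in each. Of 19 granule progenitor genes 3 rose while 5 fell in each region. All 4 measured hedgehog genes rose in the hemisphere, and 3 of them rose in the vermis. The part of these other cell types in the lower En1 of SmoM2 vermis was not tested.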

How the data were processed

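Biotin-labelled cRNA from 12 samples was hybridised to Affymetrix mouse 3′ expression arrays. The deposited log2 values were made by the authors with Partek and RMA, per the submitters' processing notes. RMA subtracts background, normalizes by quantiles and compresses dim differences. The sources used here give no versions. Samples were grouped by title. The platform annotation gave 34945 of the non-control probe sets 1 symbol, 932 several and 9160 none, and 64 controls were left out. For each of 18193 genes the brightest probe set was kept. Hemisphere and vermis, and SmoM2 and wild type, were compared by lmFit and eBayes of limma 3.58.1 (R 4.3.3, 4 group means, 8 residual degrees of freedom), two-sided, with Benjamini-Hochberg adjustment over all genes and a threshold of 0.05. The number of arrays limits precision, and the p-values measure only the spread between these pooled samples. The fit was tested on simulated data. Same-numbered hemisphere and vermis arrays of a genotype correlated in their deviations from group means (r from 0.162 to 0.564 in 6 pairs). The numbers were therefore taken as pairing regions within a genotype, and such a pair of arrays is called a pool. The sample labels do not say whether these arrays came from the same mice, and the source of the correlation was not tested. Between genotypes r ran from -0.24 to 0.201 for same-numbered arrays of a region. The highest of these, in the vermis, lay above the SmoM2 pairs at 0.162 and 0.196, so the ranges overlapped. Alternatives were another choice of probe sets, normalization, filter, moderation, weights, samples in the fit, replicate blocks and leaving out each array. The fixed pool block, and all alternatives for genes other than the 6, were chosen after seeing the data. Named genes were the 6 members, those of 13 fixed lists with the smallest p (up to 6 of the isthmic list), and the 3 most correlated with each called member. Other list genes in the text (Wnt1, Fgf17, Pax8, Sp8, Sp5, Meis1, Tle4, Pbx3, Spry1, Etv4 and the FGF receptors among them) were added after their values were seen. The members and lists were chosen with earlier results of these data known.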

Additional observations from a re-analysis of the deposited data

How the results depend on the processing

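Of the results for the 6 genes, 324 kept their sign and their side of the threshold when 1 array was left out, 29 lost the call, 3 gained one and 4 changed sign. Under the other alternatives these numbers were 295, 8, 6 and 4. The En1 difference between regions passed under every alternative run, with adjusted p up to 0.00011 in wild type and 0.000999 in SmoM2. Members called between regions in wild type numbered 3, 2 after median centring or with the pool as a fixed block, 1 with every probe set as a row, with array quality weights or with only the groups compared, and 1 to 3 with 1 array left out. In SmoM2 the number was 2, 3 with the pool as a random replicate block, and 1 to 2 with 1 array left out. For SmoM2 in the hemisphere it was 0, and 1 after renewed quantile normalization. For SmoM2 in the vermis it was 1, and 2 when all probe sets were averaged, under trended and robust moderation, under array quality weights or when the fit held just the groups compared, and 0 to 2 with 1 array left out. With the replicate number as a fixed replicate block no member's call changed, and the pool blocks changed those of En2 and Otx2 given above. Signs changed only for differences that did not pass: Lmx1b when its probe sets were averaged (-0.071 for SmoM2 in the hemisphere and 0.052 between wild type regions), after renewed quantile normalization (0.022 for SmoM2 in the vermis) and without 1 array (-0.14 to 0.061 between wild type regions, above 0 at 0.061 and 0.022), Otx2 for SmoM2 in the vermis after median centring (0.022) and without 1 array (-0.049 to 0.023, above 0 at 0.023 and 0.0023), and Fgf8 between wild type regions (-0.24 to 0.022 without 1 array, above 0 at 0.022 and 0.0053).

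Of all genes, 34 were called between wild type regions, and 198 with the pool as a random replicate block, 49 as a fixed block, 15 with array quality weights and 3 with only the groups compared (8 to 58 with 1 array left out). Between SmoM2 regions 11 were called, and 39 with the random block and 42 with the weights (2 to 18). For SmoM2 2694 were called in the hemisphere (1753 with only the groups compared, 1633 to 4277 with 1 array left out) and 3096 in the vermis (1756 to 3828), and 4840 and 5032 of 45037 probe sets. For the difference between both SmoM2 effects 0 were called, and 0 to 1 with 1 array left out. With the lower quartile of each array as the limit for dim signal, 4 members and not 3 lay above it on every array, Lmx1b being added. This holds for the kept Lmx1b probe set, while the other was above the lower quartile on 11 of 12 arrays. The cause of these shifts was not tested. RMA values of En1 in the hemisphere, Fgf8 in wild type, Gbx2 and Lmx1b are too dim to give ratios.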
